A study of Mus musculus with 2 samples.

Results

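The enzymes of glycolysis and the citric acid cycle were described in the granule layer of the adult mouse cerebellum through 41 genes, chosen by name, of 43346 annotated genes. They cover glycolysis from hexokinase to pyruvate kinase, lactate dehydrogenase, the pyruvate dehydrogenase complex with its kinases, and the matrix enzymes of the citric acid cycle with cytosolic malate dehydrogenase. The genes were listed by pathway membership and not by a threshold on measured values, though earlier results of these data were known when the list was made. The series holds 2 libraries of total RNA, each from an area of 18000 square microns cut by laser capture from the granule layer, with a stated input of 50 cells and a Smart-seq protocol. Both areas carry the same labels: wild type, male, adult, 8 months old, strain B6NCrl in one field and C57Bl6 in another, untreated as far as the labels say, and derived from the same donor record. The labels call them biological replicates 1 and 2 and do not say whether 1 animal or several gave the tissue, so the spread between them may be partly technical. There is no second tissue, genotype or treatment, and therefore no contrast between conditions. An area is a mixture of cells, in which fewer cells of a type and less RNA per cell cannot be told apart.

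Glycolysis splits glucose into pyruvate in the cytosol and yields a little ATP and NADH. Pyruvate is then either reduced to lactate by lactate dehydrogenase or carried into the mitochondrion, where the pyruvate dehydrogenase complex turns it into acetyl-CoA for the citric acid cycle, whose NADH feeds the respiratory chain. Several steps are catalysed by isozymes from different genes, and in brain some of these are known as neuronal or astrocytic forms, such as Eno2 of neurons and Aldoc of astrocytes, Bergmann glia and a subset of Purkinje cells.

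The libraries held 20532709 and 19939370 estimated read counts, and 3 counts, the level that a count of 0 still allows, corresponded to 0.15 and 0.156 CPM, the count scaled to the gene counts of its library. Levels are given in TPM, a unit corrected for transcript length and library size, in replicate 1 and then replicate 2. The granule cell label was checked on 7 marker genes, all detected, with a summed level of 2067 and 2289.5 TPM; Gabra6, a GABA receptor subunit of mature granule cells, was the highest at 925.26 and 1086.49 and the vesicular glutamate transporter Slc17a7 the lowest at 11.94 and 12.28. Other cells were present. Of the markers of astrocytes and Bergmann glia, 6 of 7 were detected, summing to 353.69 and 333.31 TPM, with S100b at 118.87 and 119.24 and the Bergmann glia gene Gdf10 at 0.07 and 0.05. All 6 oligodendrocyte markers were detected and summed to 535.31 and 654.17, from Mbp at 248.91 and 311.66 to Mag at 5.21 and 6.38. Red blood cell markers stood furthest apart, with all 5 detected and a sum of 5039.6 against 390.11 TPM, from Hba-a2 at 2178.13 and 163.31 to Alas2 at 3.9 and 1.63. Smaller sums were seen for microglia (4 of 5 detected, 84.07 and 63.92, from Ctss at 27.65 and 20.89 to Cx3cr1 at 0.29 and 0.99), Purkinje cells (3 of 4, 100.16 and 168.61, from Pcp2 at 91.08 and 158.07 to Ppp1r17 at 0.57 and 0.44) and Golgi cells and other inhibitory neurons (4 of 4, 44.07 and 32.83, from Gad1 at 20.87 and 18.31 to Slc6a5 at 2.61 and 2.21).

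Most of the 41 genes were expressed, and many were abundant. A gene was called detected at a TPM of at least 1 and a count of at least 5 in both areas. By that rule 37 of 41 genes, or 90.2%, were detected, against 28.9% of all annotated genes and 50.4% of protein-coding genes. The genes not detected in both areas were the hexokinases Hk2 and Hk3, the muscle phosphoglycerate mutase Pgam2 and the kinase Pdk4. The median level of the 41 genes was 70.12 TPM, from 75.98 in replicate 1 and 64.25 in replicate 2, beside 1.42 over all protein-coding genes and 14.3 over the protein-coding genes detected in both areas. Of the set, 18 genes had a mean of at least 100 TPM, 15 lay between 10 and 100, 4 between 1 and 10, and 4 below 1. Among 21461 nuclear protein-coding genes, 9 of the set ranked within the first 500 and 21 within the first 2000. Their counts added up to 0.835% and 0.859% of all gene counts.

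Ordered by mean TPM, the set ran from Mdh1, the cytosolic malate dehydrogenase, through Aldoa, Gapdh, Tpi1, Ldhb and Mdh2 at the top down to Hk3 at the bottom. Each of these first 6 genes lay above the next in both areas by deposited TPM, an order that depends in part on the treatment of length, as given below. Further down, the order was looser, and in 17 of the 40 pairs of neighbours the ranges of the areas overlapped. Pkm, Pdhb, Eno2, Suclg1 and Sucla2 formed the longest run in which each range overlapped the next, between 129.9 and 162.16 TPM, although Pkm lay above Eno2 and Eno2 above Suclg1 in both areas.

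**Figure D1:**
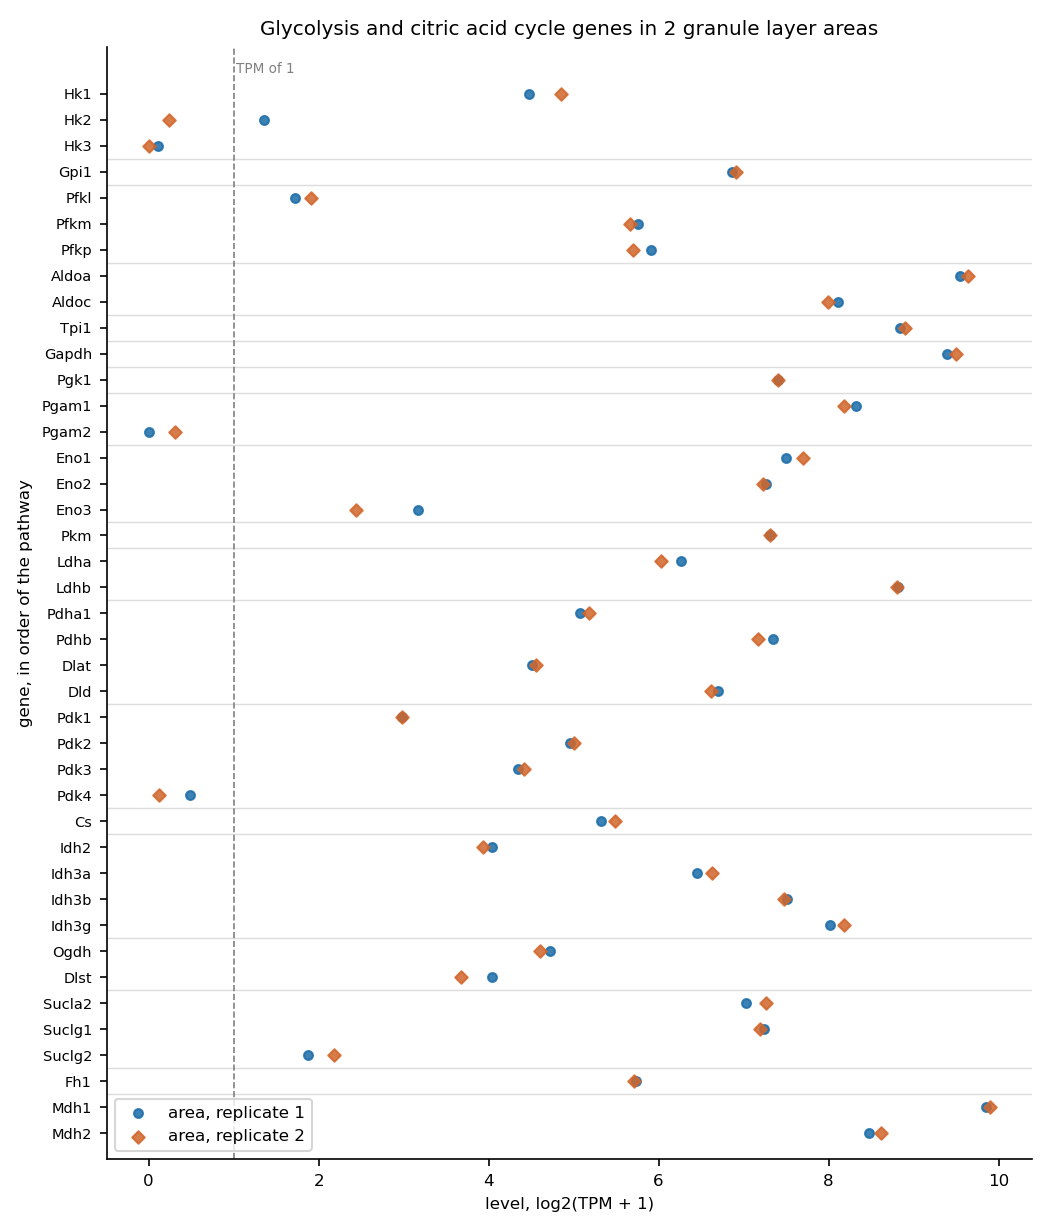
Level of each gene as log2(TPM + 1) on the horizontal axis, with genes in pathway order on the vertical axis; circles are the area of replicate 1 and diamonds that of replicate 2, and grey lines separate the enzyme steps. The symbols of the 2 areas nearly coincide for most genes, Hk2, Hk3, Pgam2 and Pdk4 lie at the left near or below a TPM of 1, and Mdh1, Aldoa and Gapdh lie furthest right.

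Glycolysis begins with hexokinase, which phosphorylates glucose and holds it in the cell, and this step had the lowest summed level of all the steps. Hk1, the hexokinase of brain that binds to mitochondria, was at 21.16 and 27.94 TPM on chromosome 10 (62268855 to 62379908, minus strand, mm10). Its share of the hexokinase sum was 92.77% in replicate 1 (exact 95% interval 90.08 to 94.94) and 99.36% in replicate 2 (98.8 to 99.69). Hk2, the insulin-responsive form of muscle and fat, was at 1.57 and 0.18 TPM from 29 and 10 counts, and Hk3, a form of white blood cells, at 0.08 and 0 TPM from 4 and 0 counts. The short transcript Hk2-202, of 594 bases and not annotated as protein-coding, held 88.09% and 43.67% of the Hk2 TPM from 11.7 and 0.66 counts. On transcripts annotated as protein-coding alone, the Hk1 share was 98.72% and 99.64%, so the gap in share between the areas depended on that transcript. Hk1 was thus the leading hexokinase in both areas, and the counts behind the other forms were small. These intervals, like all those below, come from the read counts and cover counting error only, since reads without molecular identifiers are not independent molecules.

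The Hk1 level depended on which transcripts the reads were given to. Its CPM values were nearly equal at 46.9 and 46.1, but transcripts shorter than 1000 bases held 45.1% of its TPM in replicate 1 and 65.1% in replicate 2. The short transcript Hk1-218, of 784 bases, alone was given 78.13 and 182.78 counts and thereby 6.66 and 16.02 TPM. With the length of the transcript that held the most counts, Hk1-202, in place of the estimated mean length, Hk1 came to 16.3 and 16.0 on a rescaled TPM scale. The higher TPM of Hk1 in replicate 2 thus came with more counts on a short transcript and not with more counts on the gene.

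Glucose phosphate isomerase, Gpi1, converts glucose phosphate to fructose phosphate and was at 115.52 and 119.4 TPM. Phosphofructokinase then commits the sugar to glycolysis, and this step was carried by a pair of genes at nearly the same level. Pfkp, the platelet form, was at 59.15 and 50.87 TPM, 51.62% (50.2 to 53.04) and 49.19% (47.67 to 50.7) of the sum. Pfkm, the muscle form, was at 53.14 and 49.78 TPM, 46.37% (44.97 to 47.79) and 48.13% (46.63 to 49.64). The ranges of both genes over the areas overlapped. Which of them is higher changed with the treatment of length: by raw counts Pfkm held 51.08% and 52.31%, by the length of the main transcript 50.27% and 51.62%, and by transcripts annotated as protein-coding alone 59.13% and 60.05%. Only 58.2% and 59.9% of the Pfkp TPM lay on coding transcripts, since retained-intron transcripts took a share, and all of the Pfkm TPM did. Exons of Pfkp share 748 bases with those of Pitrm1 on the opposite strand, which had 421.13 and 378.97 counts, and the sources used here do not say whether counting used strand. The liver form Pfkl was far below both at 2.3 and 2.77 TPM, 2.007% and 2.678% of the sum.

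Aldolase cleaves the sugar phosphate into triose phosphates and had the highest summed level of the glycolytic steps, at 1021.4 and 1051.3 TPM. Aldoa, the muscle and general form, was at 745.28 and 796.95 TPM on chromosome 7 (126795234 to 126800751, minus strand). Aldoc, the brain form, was at 276.11 and 254.35 TPM on chromosome 11 (78322968 to 78327781, plus strand). The Aldoa level was 2.7-fold and 3.13-fold that of Aldoc, and the ranges did not overlap. On coding transcripts alone the folds were 3.51 and 4.08. Aldoc is known in cerebellum as a gene of astroglia and of Purkinje cell stripes. It was higher in replicate 1. Of the markers given above, 3 of the 7 for astrocytes and Bergmann glia were called higher there and 0 in replicate 2. Among these, S100b was nearly equal. Of the 4 for Purkinje cells, 2 were called higher in replicate 2 and 0 in replicate 1. Over all genes tested, 24.0% were called higher in replicate 1 and 23.7% in replicate 2. Whether these short lists exceed those shares was not tested. The part of these cells in the Aldoc level was not tested.

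The steps from triose phosphate to pyruvate were mostly carried by a single gene each. Triosephosphate isomerase, Tpi1, interconverts the trioses and was at 458.32 and 476.89 TPM. Gapdh, which oxidises glyceraldehyde phosphate and makes NADH, was at 671.83 and 719.84 TPM. Pgk1, which makes the first ATP of the pathway, was at 168.14 and 168.02 TPM, equal within 0.0505% (coefficient of variation of the 2 areas). By total TPM, Gapdh was the second and Tpi1 the third most abundant glycolytic gene in both areas, after Aldoa. Of the Gapdh TPM, 42.44% and 41.16% lay on a short transcript without an annotated reading frame, and on coding transcripts alone Gapdh was at 382.45 and 416.61 TPM, below Tpi1 at 456.28 and 475.48. Gapdh has 154 annotated pseudogenes that match its transcript at 90% identity or more over at least 200 bases; they were given 819 and 893 counts, equal to 8.13% and 8.39% of the Gapdh counts. Pgk1 has 2 such copies, of which Pgk1-rs7 on chromosome 12 was given 541 and 242 counts, equal to 10.9% and 5.03% of those of Pgk1, so the equality of Pgk1 between areas holds only for the reads assigned to the parent gene. The other members with such copies at over 1% of their own counts were Pgam1, at 1.39% and 1.5%, and Eno1, at 1.29% in replicate 2.

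Phosphoglycerate mutase rested on Pgam1, the brain form, at 320.39 and 288.98 TPM. The muscle form Pgam2 had 0 and 3 counts, so its share of 0% in replicate 1 allows up to 0.09061% by the exact interval. Enolase, which makes phosphoenolpyruvate, was shared between the general and the neuronal form. Eno1, the general form, was at 180.33 and 206.95 TPM, 52.91% (52.02 to 53.8) and 57.4% (56.53 to 58.27) of the enolase sum. Eno2, the neuron-specific enolase, was at 152.47 and 149.15 TPM, 44.74% (43.85 to 45.63) and 41.37% (40.51 to 42.24). Eno1 lay above Eno2 by TPM in both areas, by 1.18-fold and 1.39-fold; by raw counts with no length correction it lay below in replicate 1, at 48.55% of the sum, and above in replicate 2, at 52.69%. The gap was wider on coding transcripts: the retained-intron transcript Eno2-203 held 44.41% and 44.13% of the Eno2 TPM, at 67.71 and 65.82. Coding transcripts gave Eno2 83.91 and 82.26 TPM and Eno1 175.95 and 202.48, so that Eno1 was 2.1-fold and 2.46-fold above Eno2. The muscle form Eno3 was at 8.01 and 4.43 TPM from 138 and 89 counts. Skeletal muscle markers were checked beside it: Ckm, Tnnc2 and Myh4 were at 0 in both areas, while Acta1 was at 7.66 and 6.39 TPM and Mylpf, a myosin light chain of fast muscle, at 4.02 and 6.75. Mylpf was called higher in replicate 2 and Eno3 in replicate 1.

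Pyruvate kinase makes pyruvate and ATP, and here the gene Pkm was expressed almost wholly as its M1 form. The gene (chromosome 9, 59656368 to 59679375, plus strand, mm10) was at 157.32 and 157.24 TPM. Its transcripts hold either of a pair of mutually exclusive exons: the M1 exon gives the constantly active enzyme of muscle and brain, and the M2 exon the allosterically regulated enzyme of growing and many non-neuronal cells. Both exons are 167 bases long and lie 372 bases apart, the M1 exon at chr9:59675029-59675195 and the M2 exon at chr9:59675568-59675734 on the plus strand of GRCm38, which is mm10. They are printed here because the reads of these exons are what tells the forms apart; capitals mark the positions at which they differ, and the sequences are those of the reference transcripts of GENCODE release M21.
M1 exon: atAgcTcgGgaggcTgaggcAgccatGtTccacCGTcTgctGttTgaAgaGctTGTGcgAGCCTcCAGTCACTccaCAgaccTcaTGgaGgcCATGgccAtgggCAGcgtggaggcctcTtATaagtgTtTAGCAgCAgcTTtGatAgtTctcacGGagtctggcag
M2 exon: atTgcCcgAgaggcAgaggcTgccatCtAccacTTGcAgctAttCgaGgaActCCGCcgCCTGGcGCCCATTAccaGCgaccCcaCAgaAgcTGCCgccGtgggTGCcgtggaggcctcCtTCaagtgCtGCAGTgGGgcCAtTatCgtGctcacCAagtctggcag

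The exons are identical at 103 of 167 positions, or 61.7%, and differ at 64, with a GC content of 56.3% for M1 and 62.9% for M2. The M1 transcript Pkm-202 was at 151.39 and 148.62 TPM, which is 96.23% (95.7 to 96.7) and 94.52% (93.9 to 95.1) of the gene, a mean of 95.38% ± 1.21 (SD, n = 2). These intervals treat every read of the gene as if it told the forms apart, so they are too narrow even for counting error. Their lack of overlap does not show that the areas differ. The M2 transcript Pkm-201 was at 5.93 and 8.62 TPM, from 237.09 and 335.16 estimated counts with a deposited posterior standard deviation of 53.3 and 58.77. M1 was thus 25.5-fold and 17.2-fold above M2. The deposited intervals of the M2 TPM, 3.62 to 8.78 and 5.62 to 11.8 at a level the files do not state, lay above 0 in both areas and overlapped each other. The deposited table holds no other Pkm transcript.

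**Figure D2:**
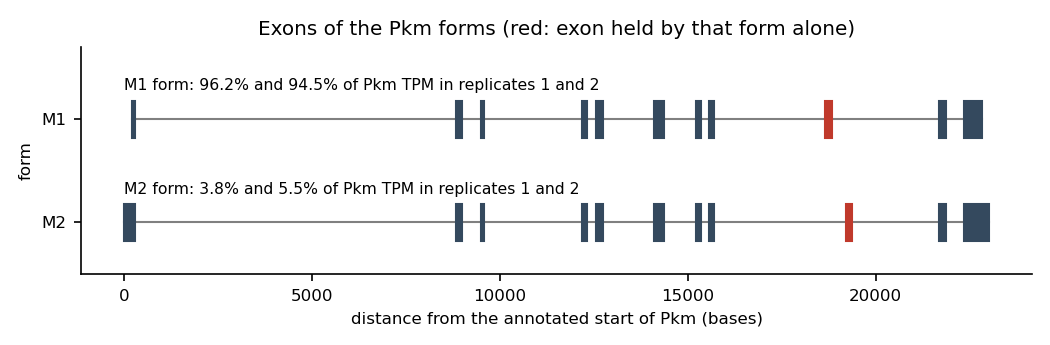
Exons of the M1 and M2 forms of Pkm in the GENCODE M21 annotation, drawn to scale by distance in bases from the annotated start of the gene, with the exon held by that form alone in red. The forms share the coding exons before and after the exchanged exon, and the M1 form held 96.2% and 94.5% of the TPM of the gene in the 2 areas.

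Lactate dehydrogenase converts pyruvate to lactate and back, and its B subunit dominated. Ldhb, the subunit of heart, was at 448.2 and 446.58 TPM on chromosome 6 (142490249 to 142507957, minus strand), a mean of 447 ± 1.15 (SD, n = 2). Ldha, the subunit of skeletal muscle and of the hypoxia response, was at 75.98 and 64.25 TPM on chromosome 7 (46841475 to 46855627, plus strand), a mean of 70.1 ± 8.29. Ldhb was thus 5.9-fold and 6.95-fold above Ldha, and held 85.5% (84.88 to 86.11) and 87.42% (86.82 to 88.01) of the sum. Beyond counting error, Ldha was higher in replicate 1 (adjusted p = 8.67e-05, exact binomial test between the 2 libraries), whereas Ldhb counts gave an adjusted p of 0.876 in the same exact binomial test. Whether the Ldhb share differed between areas by more than areas vary cannot be said from 1 library each.

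**Figure D3:**
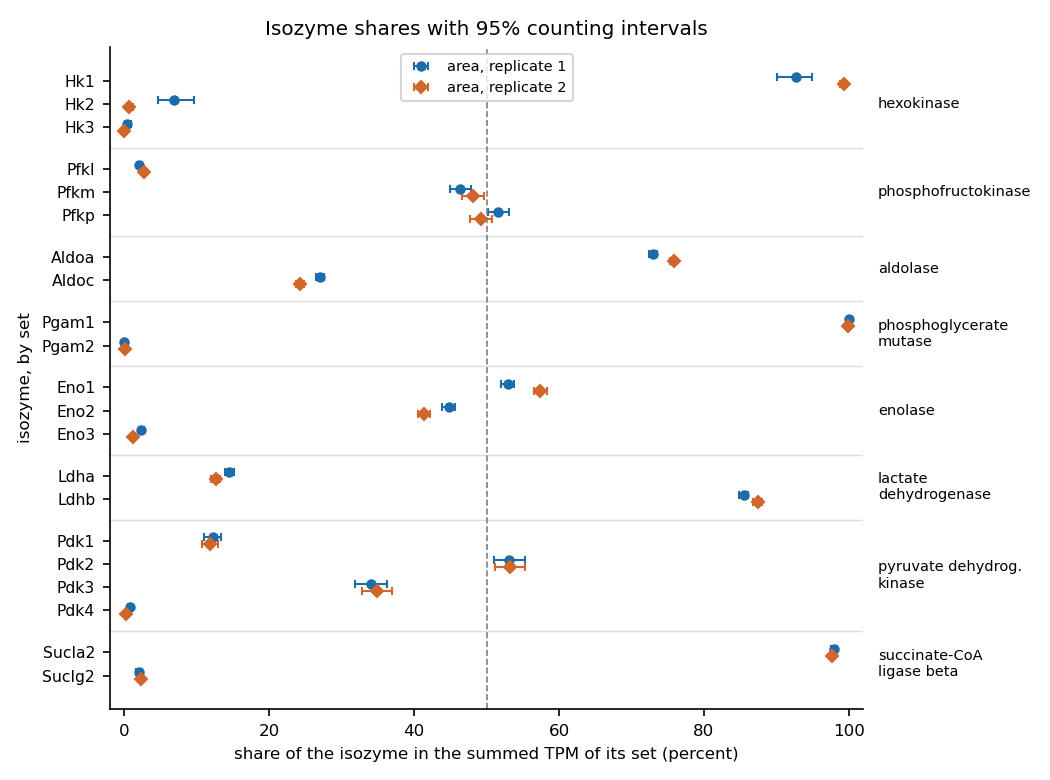
Share of each isozyme in the summed TPM of its set, in percent, with exact 95% intervals for counting error; circles are replicate 1 and diamonds replicate 2, and the dashed line marks 50%. Hk1, Pgam1 and Sucla2 lie above 90%, Ldhb and Aldoa between 72.97 and 87.42%, and phosphofructokinase, enolase and the kinases of pyruvate dehydrogenase are split.

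Over the 8 sets of isozymes, 7 had a gene with more than 50% of the summed TPM in both areas, and phosphofructokinase had none. By raw counts, 5 of the 8 sets gave the same answer: phosphofructokinase was then led by Pfkm, and enolase and the pyruvate dehydrogenase kinases had no gene above 50% in both areas. With the length of the main transcript, with the deposited posterior mean TPM or with coding transcripts alone, 7 of the 8 gave the same answer, the exception being phosphofructokinase. A further list held 10 isozymes outside the set, mostly of liver and testis. Of these, Ldhd, a D-lactate dehydrogenase, was detected at 1.05 and 1.08 TPM. Ogdhl, a relative of Ogdh, was at 0.33 and 0.39 TPM. The liver and red cell pyruvate kinase Pklr and the testis forms Ldhc, Gapdhs, Pgk2 and Pdha2 were at 0 in both areas. Pklr was thus at 0 also in replicate 1, where the red blood cell markers were high.

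The pyruvate dehydrogenase complex links glycolysis to the cycle, and its subunits were expressed at unequal levels. Pdhb, the beta subunit of the first enzyme, was at 162.16 and 142.56 TPM, 4.96-fold and 4.03-fold above its partner Pdha1, the X-linked alpha subunit that the kinases phosphorylate, at 32.68 and 35.41. Dlat, the acetyltransferase core, was at 21.86 and 22.58 TPM. Dld, the dihydrolipoamide dehydrogenase that this complex shares with others, was at 102.52 and 97.28, 4.69-fold and 4.31-fold above Dlat. The ranges of the 4 subunits did not overlap. TPM of mRNA does not give the make-up of the protein complex.

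The kinases that switch the complex off were led by Pdk2. Pdk2, the widely expressed form, was at 30.08 and 31.14 TPM, 53.11% (50.96 to 55.26) and 53.19% (51.09 to 55.28) of the sum. Pdk3, which is X-linked, was at 19.26 and 20.4 TPM, 34.0% and 34.85%. Pdk1, a target of the hypoxia response, was at 6.9 and 6.91 TPM, 12.18% and 11.8%. The order Pdk2, Pdk3, Pdk1, Pdk4 was the same in both areas. Pdk4, the form induced by fasting, was at 0.4 and 0.09 TPM from 23 and 5 counts.

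The citric acid cycle was present throughout: all 12 of its mitochondrial genes in the set were detected. Citrate synthase, Cs, which brings acetyl-CoA into the cycle, was at 39.13 and 43.91 TPM. The NAD-dependent isocitrate dehydrogenase has a catalytic alpha subunit, Idh3a, at 86.25 and 97.7 TPM. Its other subunits were higher: Idh3b was at 181.86 and 176.88 TPM. Idh3g, the X-linked gamma subunit, was at 257.65 and 290.3, 2.99-fold and 2.97-fold above Idh3a. The order Idh3g, Idh3b, Idh3a was the same in both areas, also by the length of the main transcript, where the folds of Idh3g over Idh3a were 2.52 and 2.54, and on coding transcripts alone, where they were 1.94 and 2.1. Idh2, the NADP-dependent enzyme of the matrix, was far lower at 15.5 and 14.3 TPM, so that Idh3a was 5.56-fold and 6.83-fold above it. By the length of the main transcript these folds were 6.77 and 9.59. The gap was also wider on coding transcripts alone, where Idh2 was at 10.52 and 7.22 TPM and Idh3a unchanged.

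The oxoglutarate dehydrogenase complex, which makes succinyl-CoA, was among the lowest steps as summed here, over Ogdh and Dlst alone. Ogdh, its first enzyme, was at 25.47 and 23.36 TPM, and Dlst, its succinyltransferase core, at 15.49 and 11.77 from 708 and 523 counts. The summed 40.96 and 35.13 TPM of these subunits overlapped the range of citrate synthase. Summed this way, both steps lay at the low end of the cycle by deposited TPM, above the hexokinase sum of 22.81 and 28.12. The low place of the oxoglutarate dehydrogenase complex rests on counting its shared subunit Dld, at 102.52 and 97.28 TPM, with pyruvate dehydrogenase.

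Succinate-CoA ligase pairs a common alpha subunit with a beta subunit that sets whether ATP or GTP is made. Suclg1, the alpha subunit, was at 149.81 and 145.86 TPM. Sucla2, the ATP-forming beta subunit, was at 129.9 and 152.45 TPM on chromosome 14 (73525319 to 73596142, plus strand). Suclg2, the GTP-forming beta subunit, was at 2.68 and 3.52 TPM on chromosome 6 (95473009 to 95718800, minus strand), from 100 and 128 counts. Sucla2 was 48.5-fold and 43.3-fold above Suclg2 and held 97.98% (97.55 to 98.35) and 97.74% (97.32 to 98.11) of the beta subunit sum. Both genes passed the rule for detection, so the gap is one between levels and not against 0. Sucla2 and Suclg1 overlapped in range.

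Fumarase and malate dehydrogenase close the cycle. Fh1, the fumarase, was at 52.33 and 51.25 TPM. Mdh2, the mitochondrial malate dehydrogenase, was at 354.55 and 390.22 TPM, the highest of the matrix enzymes in the set. Mdh1, the cytosolic form that works in the malate-aspartate shuttle, was at 925.43 and 953.35 TPM, 2.61-fold and 2.44-fold above Mdh2. Part of that excess rests on short transcripts: those under 1000 bases held 45.7% and 49.0% of the Mdh1 TPM, and by the length of the main transcript the folds over Mdh2 were 1.9 and 1.69, with Mdh1 higher in both areas. On coding transcripts alone they were 3.31 and 2.9, but these still include the short Mdh1-202, of 549 bases, at 295.5 and 314.5 TPM. With main transcript lengths Mdh1 lost its first place in the set. It came to 730 and 732 on the rescaled TPM scale, below Aldoa at 864 and 935. On coding transcripts, Mdh1-202 included, Mdh1 stayed above Aldoa, at 798.27 and 800.29 against 737.29 and 791.61 TPM. The main transcript Mdh1-201 alone was at 502.77 and 485.79 TPM, below those Aldoa values. Short transcripts also held 60.2% and 48.5% of the TPM of Fh1, where the fumarase transcript Fh1-201 of 2636 bases had 20.81 and 26.37 TPM, and 43.3% and 42.4% of that of Gapdh. With main transcript lengths Gapdh came to 526 and 579 on the rescaled TPM scale and Tpi1 to 539 and 566, so that their order was reversed in replicate 1. Fumarase came to 32.68 and 38.15 on that scale, below the sum of Ogdh and Dlst at 44.35 and 40.73. Citrate synthase came to 48.01 and 54.47. Which cycle step was lowest thus depended on the treatment of length.

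**Figure D4:**
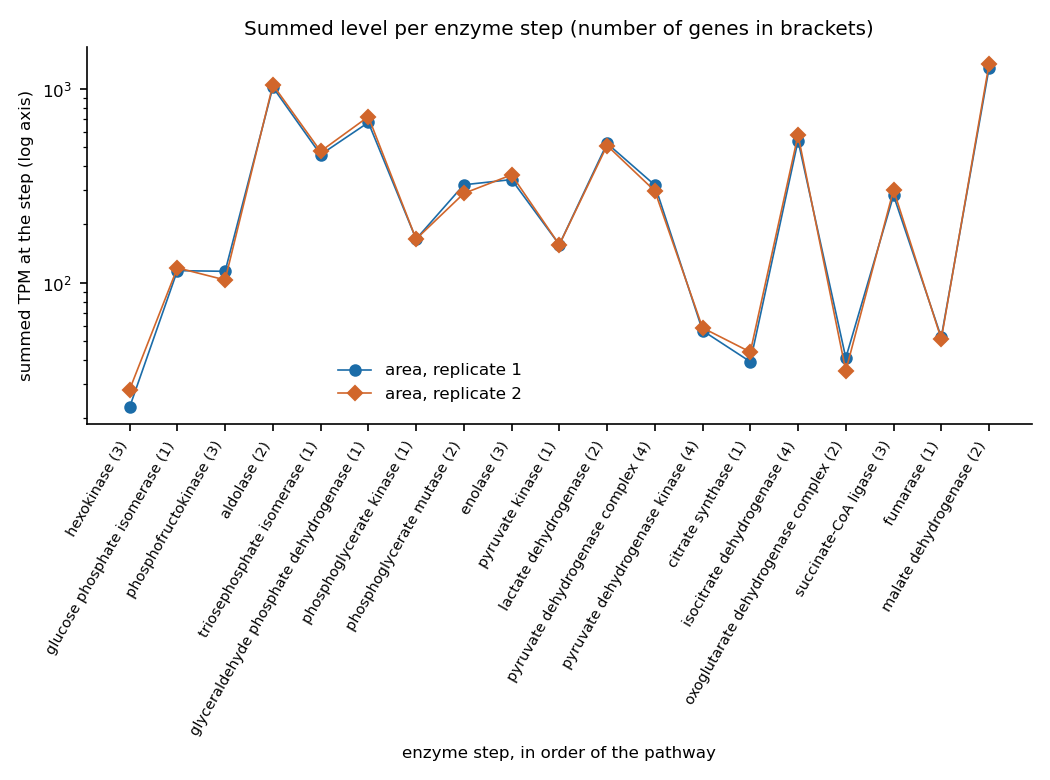
Summed TPM of the genes at each enzyme step on a log axis, with the steps in pathway order and the number of genes in brackets; circles are replicate 1 and diamonds replicate 2. Hexokinase is the lowest step, followed on this scale by the oxoglutarate dehydrogenase complex and citrate synthase, and aldolase and malate dehydrogenase exceed 1000 TPM. The oxoglutarate dehydrogenase complex is drawn without the shared subunit Dld, which is counted with pyruvate dehydrogenase. The lines of the areas run together.

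Summed over the pathway, the 18 glycolytic genes from hexokinase to pyruvate kinase reached 3391.1 and 3474.0 TPM, a mean of 3433 ± 58.6 (SD, n = 2). The 12 mitochondrial cycle genes reached 1310.6 and 1401.5 TPM, a mean of 1356 ± 64.3. The ratio of the sums was 2.59 and 2.48, which describes these lists of unequal length and not a flux. The succinate dehydrogenase genes were not in the set and came from a further list.

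Genes around the pathways were taken from further lists of 46 genes, of which 39 were detected in both areas. Beyond counting error between the libraries, 10 of them were higher in replicate 1 and 8 in replicate 2, while 24.0% and 23.7% of all genes tested were, so these counts were no more than the background. Transport was led by Bsg, the chaperone of the lactate transporters, at 442.16 and 514.24 TPM. The neuronal glucose transporter Slc2a3 was at 18.61 and 19.14, and Slc2a1, the glucose transporter of endothelium and glia, at 13.66 and 11.39 TPM. The lactate exporter Slc16a3, known from muscle and astrocytes, was at 0.07 and 0.01 TPM. Entry of pyruvate into mitochondria was marked by high levels of the carrier subunits Mpc1, at 981.68 and 1047.08 TPM, and Mpc2, at 243.69 and 253.66. By deposited TPM, Mpc1 was thus above every member of the set in both areas. By counts, with no length correction, Mpc1 at 12520.76 and 12923.55 lay below Mdh1 at 20893 and 20118 and Aldoa at 17594 and 18298.

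Of the enzymes that make or remove fructose bisphosphate signals to phosphofructokinase, Pfkfb2 was at 42.92 and 43.92 TPM and alone passed the rule for detection. Tigar, a phosphatase of the same signal, was at 2.78 and 0.95 TPM, Pfkfb3, the form degraded in neurons, at 0.66 and 1.48, and Pfkfb4 at 1.01 and 0.76. Among the partners of pyruvate dehydrogenase, all 4 were detected: Pdhx, which anchors Dld, was at 23.69 and 21.74 TPM. The phosphatase Pdp1 was at 19.13 and 18.55 TPM, its regulator Pdpr at 4.34 and 3.86, and the phosphatase Pdp2 at 3.22 and 3.53. The activating phosphatase Pdp1 therefore stood in the range of the kinases, below Pdk2 in both areas.

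The further cycle enzymes were all detected, and the iron-sulfur subunit Sdhb of succinate dehydrogenase led them at 305.11 and 328.34 TPM. Its partners were Sdhd, a membrane anchor, at 189.57 and 189.39 TPM and Sdha, the flavoprotein, at 132.35 and 117.85. Aco1, a cytosolic enzyme that also binds RNA, was the lowest at 4.24 and 4.96 TPM. Among shuttle and filling enzymes, the cytosolic aspartate transaminase Got1, which works with Mdh1, was at 146.56 and 136.45 TPM, Gpd2 of the glycerol phosphate shuttle at 25.32 and 26.13, and the mitochondrial transaminase Got2 at 20.59 and 21.91. The gluconeogenic enzyme Pck1 was at 0.

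Branches for glycogen and pentose phosphates were described last. In the glycogen list, Pygm, the muscle phosphorylase that is also known from astrocytes, was at 17.44 and 13.52 TPM, the mutases Pgm1 at 14.77 and 15.4 and Pgm2 at 3.37 and 3.65, the phosphorylase Pygb at 3.8 and 3.58, and glycogen synthase Gys1 lowest at 3.06 and 2.62. All 7 pentose phosphate genes were detected. Taldo1, the transaldolase, was at 91.21 and 95.68 TPM, the lactonase Pgls at 46.87 and 49.65, the epimerase Rpe at 25.42 and 21.37, and the dehydrogenase Pgd lowest at 4.04 and 4.38.

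The areas were then compared gene by gene, a comparison of 2 libraries and not of conditions. An exact binomial test of rounded counts was run on 16636 annotated genes with a summed count of at least 10, with Benjamini-Hochberg adjustment at 0.05 and with reads taken as independent. Of the set, 39 genes were tested, all but Hk3 and Pgam2. Beyond counting error, 25 of them (64.1%) differed, against 47.6% of all genes tested. Of these, 11 were higher in replicate 1, where the background was 24.0%, and 14 in replicate 2, with a background of 23.7%. Deep genes differ more often by such a test: with a summed count of at least 1000, it was 20 of 32 genes of the set (62.5%) against 55.1%, so the share was near the background. With all counts divided by 10, 0 of the 39 were called (117 genes, 0.703%, in all), and no p-value from reads describes the spread between areas.

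The sizes were small. Over the 37 detected genes the log2 ratio of TPM + 1, replicate 2 over replicate 1, had a median of 0.00, as against -0.01 over all genes tested, and ran from -0.73 to 0.39. For 30 of the 37 it lay within 0.2, and the median absolute log2 ratio was 0.11, beside 0.19 over all detected genes. These groups were not matched for level. The median was 99.9 TPM for the 37 genes and 14.3 for the protein-coding genes detected in both areas. The median coefficient of variation between the areas was 5.67%.

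By pathway, the mitochondrial cycle genes counted 3 higher in replicate 1 and 7 higher in replicate 2 of 12, and glycolysis 5 and 4 of 16 tested, beside 24.0% and 23.7% of all genes. The difference between these groups was not tested. Higher in replicate 2 in the cycle were Cs, Idh3a, Idh3b, Idh3g, Sucla2, Fh1 and Mdh2. Sucla2 had the smallest adjusted p of the set, 1.59e-15 by the exact binomial test, with counts of 4370 and 5019. Higher in replicate 1 were Idh2, Suclg1 and Dlst, the last with counts of 708 and 523 (log2 ratio of -0.37, adjusted p = 2.11e-05, exact binomial test). In glycolysis, Aldoa, Tpi1, Gapdh and Eno1 were higher in replicate 2 and Hk2, Pfkp, Aldoc, Pgam1 and Eno3 in replicate 1. Eno1 had the smallest adjusted p among these at 4.93e-13, with counts of 5857.91 and 6491.31. Of the rest, Ldha, Pdhb and Pdk4 were higher in replicate 1 and Pdha1, Pdk1 and Pdk3 in replicate 2. The markers of other cells moved too: of the endothelial list all 5 were called higher in replicate 1 (sums of 217.87 and 171.91 TPM, Ly6c1 highest at 140.54 and 119.78, Pecam1 lowest at 3.15 and 1.79), and 3 of 7 astrocyte and Bergmann glia markers were. Called higher in replicate 2 were 5 of 6 oligodendrocyte markers and 5 of 7 granule neuron markers. The part of this make-up in the differences of the enzymes was not tested.

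**Figure D5:**
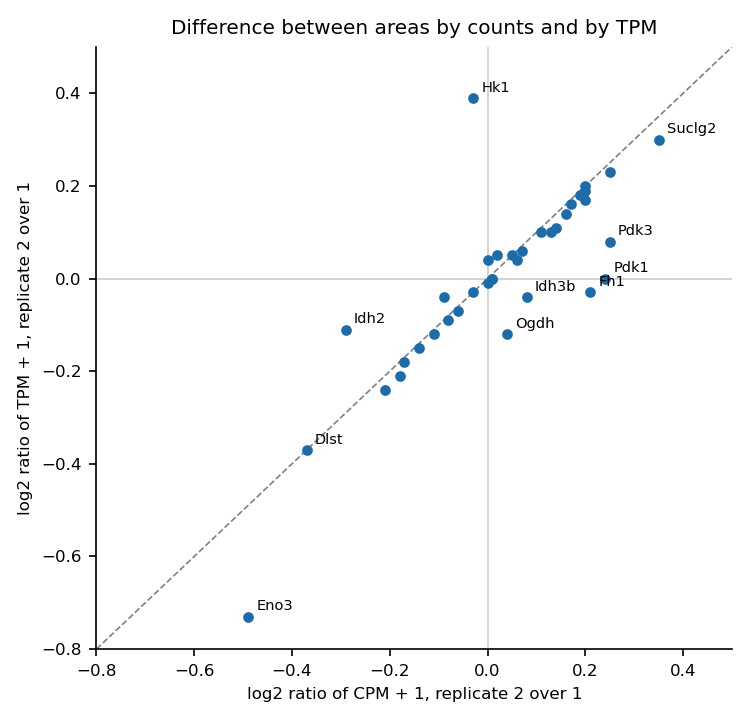
Log2 ratio of CPM + 1 between the areas (horizontal, replicate 2 over 1) against that of TPM + 1 (vertical) for the 37 detected genes; the dashed line marks equality, and genes are named where the measures differ by over 0.1 or the TPM ratio exceeds 0.25 in size. Most points lie along the line within 0.2 of 0, Hk1 lies far above the line and Idh2 above it, and Eno3, Fh1, Pdk1, Pdk3, Ogdh and Idh3b lie below.

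Counts and TPM pointed in opposite directions for 8 of the 37 genes, Hk1, Pgk1, Pkm, Ldhb, Idh3b, Ogdh, Fh1 and Mdh1. For Pgk1, Pkm, Ldhb and Mdh1 both ratios were within 0.04 of 0. For Fh1 the CPM values were 58.2 and 67.6 while the TPM hardly differed. Pdk1 likewise had 19.8 and 23.6 CPM at equal TPM. The direction of a difference between areas was therefore read from the counts.

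The genes of the set lie on 15 chromosomes, and 4 of them, Pgk1, Pdha1, Pdk3 and Idh3g, on the X. Exons of 12 genes overlap those of another annotated gene, in 11 cases on the opposite strand. On the same strand, Pkm shares 767 exon bases with Gm49759, a gene of the later annotation that was not analysed here. Pfkm, which also overlaps a gene on the opposite strand, shares 341 exon bases on the same strand with Gm26513, which had 22.04 and 6.9 counts. The longest overlaps on the opposite strand, beside that of Pfkp, were 741 bases of Gpi1 with Gm26762, which had 58.22 and 29.9 counts, and 603 bases of Pdha1 with Map3k15, which had 1.09 and 3.26. Ambiguity of read assignment at gene level was small by the deposited estimate: the posterior standard deviation was 0 in both areas for 29 genes and at most 1.67% of the count where that was 5 or more.

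Promoter windows of RefSeq (GRCm38.p6, 250 bases before to 50 after each start) were available for 40 of the 41 genes. The word ACGTG, the core of the element that hypoxia-inducible factors bind and also part of the E-box CACGTG, was searched on both strands. It occurred in 13 of 31 windows of the glycolytic and lactate dehydrogenase genes (41.9%) and in 11 of 27 of the others (40.7%), of which 6 belong to Ogdh, against 20.9% of the windows of protein-coding genes. Counted by gene, 11 of 20 (55.0%) and 6 of 20 (30.0%) held it, against 23.2% of protein-coding genes, and a gene with more windows has more chances. Ldha held it in 1 of 2 windows and Ldhb in 0 of 1. The windows had a median GC content of 57.3% and 60.7%, beside 56.3% for protein-coding genes. The TATA box word TATAAA was found in 1 of 31 and 0 of 27 windows, against 12.6%. The site of the factor NRF1 was found in 9.68% and 7.41% of windows, against 6.38%, near the background. These are matches of letters and were not tied to any level.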

How the data were processed

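The assembly is mm10, per the labels. No source used here names the aligner, the counter or how strand was treated. Deposited per gene and transcript were expected counts made by the authors from reads before deposit, TPM, a posterior mean TPM and the effective length. A posterior standard deviation and TPM interval bounds (deposited scores with no stated level) came with them. So did a percent per transcript (deposited), which is the share quoted here for single transcripts. The FPKM values of the authors were not used. IDs are of GENCODE M4 by their versions; names and coordinates came from GENCODE M21 for 42462 of 43346 IDs.

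The members and lists were chosen with earlier results of these data known. All members are named; of each further list the 3 highest and the lowest by mean TPM, and of each cell type list the highest and lowest, are named by rule. Other names were chosen after their values were seen, and a few genes of the further lists are not reported here. Computed here were means and SDs over 2 areas, and isozyme shares with exact Clopper-Pearson 95% intervals on counts carried to the TPM scale. Shares of short and of coding transcripts were also computed. An exact two-sided binomial test between the libraries was run on the expected counts rounded to whole numbers. No p-value is given for levels, since 2 against 2 values cannot go below 0.333. Pseudogene copies were sought with BLAST 2.17.0. Alternatives used edgeR 4.0.16 (TMM) and DESeq2 1.42.0 (size factors) in R 4.3.3; the rest used Python 3.11.15, scipy 1.17.1 and pandas 2.3.3. The binomial test was tested on simulated data. Spike-in and control rows, 570428 and 677453 counts, stayed out of library totals.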

Additional observations from a re-analysis of the deposited data

How the results depend on the processing

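The median level of the 41 genes, 70.12 TPM, moved to 81.81 when TPM was rescaled to nuclear annotated genes and to 82.04 with the length of the transcript with the most counts, an alternative chosen after seeing the data, as was the use of coding transcripts alone. The count of genes beyond counting error between the areas, 25, fell to 0 when all counts were divided by 10, which shrinks the evidence by construction; with TMM scaling, DESeq2 size factors or no filter on low counts the same 25 genes were called. Taking each area alone gave 64.25 to 75.98 TPM for the median level, 37 to 38 detected genes, 7 to 8 isozyme sets with a leading gene, 94.52 to 96.23% for the M1 share of Pkm and 2.48 to 2.59 for the ratio of summed glycolysis to cycle levels. Under the other settings run for these values none moved by more than the spread between areas or, for counts, by over 1.5 times. Of 437 alternative values for single genes, 272 moved by less than the spread between areas and 165 by more. The 437 include the value of each area alone, which by construction cannot move by more than that spread. The 272 therefore overstate how many values held, and 2 areas give a poor estimate of that spread. No paired analysis was possible because both libraries belong to 1 group. Depth limits Hk2, Hk3, Pgam2 and Pdk4, whose shares rest on at most 29 counts.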
